A study of Caenorhabditis elegans with 12 samples.

Results

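The 10 genes described here build or organise the eggshell of the nematode Caenorhabditis elegans and the activation of its egg: cpg-1, cpg-2, cbd-1, perm-2, perm-4, chs-1, egg-1, egg-2, egg-3 and egg-4. They were taken by name for what they do, as 10 of the 46929 genes in the deposited count table, and all 10 were among the 14610 genes with enough counts to be tested. Earlier results of these data were known when they were chosen. The 12 RNA libraries came from whole worms on 4 diets, with 3 libraries per diet: a nuclear extract of thymus gland, a cytoplasmic extract of thymus gland, desiccated thymus, and a control. All worms were raised on live bacteria (OPS0 in the labels) in NGM, and the supplements began on day 1 of adulthood. The treatment protocol calls the supplements ThymusFD, Thymex and ThymusPMG without saying which is which. The sources used here give no strain, sex, dose, age at collection or number of worms per library, and none says that the replicates were separate cultures. The design asks how adult gene expression differs between the diets.

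The eggshell of this animal is made by the oocyte and egg themselves and is layered. Its outermost part, the vitelline layer, is already present around the oocyte, and the chitin layer and an inner layer of chondroitin proteoglycan are laid down after the sperm enters. The proteoglycans reach the outside by exocytosis of cortical granules, and a lipid-rich permeability barrier forms further in. Egg activation is the set of changes, including completion of meiosis and eggshell secretion, that turns a fertilised oocyte into an embryo. The RNAs for these proteins are made in the maternal germline, so their levels in a whole worm follow both how much germline and oocyte material is present and how much of each RNA it holds; in these libraries fewer oocytes and less RNA per oocyte cannot be told apart.

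Each library held 23.1 to 33.4 in units of 1e6 counts, and the 10 genes together took 1.37% to 1.68% of them. Single genes had between 4881 and 140804 counts in a library, so counting error was at most 1.43% of any value. The share of ribosomal RNA genes was 0.377% to 2.16% except in desiccated thymus replicate 3, where it was 14.0%, and levels below are therefore CPM, counts per 1e6 of a library total scaled by the trimmed mean of M-values. All 17 of the listed oocyte and maternal regulator genes were tested and summed to between 13681 and 15685 CPM in every library, whereas 9 tested sperm genes summed to at most 18.7 CPM. The oocyte messages that this gene set belongs to were thus well covered in all 12 libraries.

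Per length, the secreted structural genes were the most abundant and the egg activation genes the least. Averaged over the 12 libraries, cpg-2 stood at 2355 CPM per kilobase of exon and was the gene of highest level per length among the 10. The vitelline layer gene perm-4 followed at 1768, then cpg-1 at 1297 and perm-2 at 1262. Next came cbd-1 at 866 CPM per kilobase, the sperm-binding surface protein genes egg-1 at 476 and egg-2 at 262, the chitin synthase gene chs-1 at 199, egg-3 at 168 and egg-4 at 93.8. The highest level per length was 25.1 times the lowest. Each gene stood above its neighbour in this order in 12 of 12 libraries, except that cpg-1 stood above perm-2 in only 8 of 12. With the nuclear extract perm-2, at 1222 to 1361 CPM per kilobase, stood above cpg-1, at 1176 to 1185, in every library. Their ranges overlapped with the cytoplasmic extract, while cpg-1 was above perm-2 without overlap with desiccated thymus and in the control. This order was the same on every diet apart from those neighbours.

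**Figure D1:**
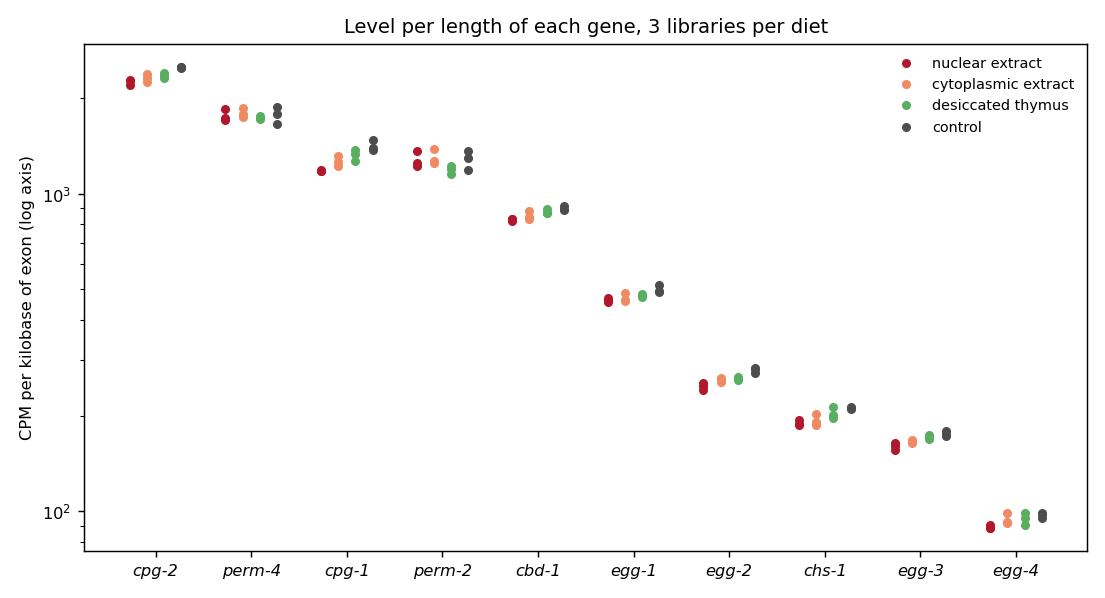
Level of each of the 10 genes per kilobase of exon (vertical log axis, CPM per kilobase) in the 12 libraries, coloured by diet, with genes ordered from the highest mean to the lowest. The mean falls from 2355 for cpg-2 to 93.8 for egg-4, and the diets lie close together compared with the distance between most genes.

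With the nuclear extract, 7 of the 10 genes fell against the control and none rose. The falls were small, between 7.82% and 16.7%, and the largest was that of cpg-1. The genes that fell were both proteoglycan genes, the vitelline layer gene cbd-1, the chitin synthase gene and 3 of the 4 egg genes. The other vitelline layer genes, perm-2 and perm-4, were within 1% of the control on average. Among all tested genes, 4.51% were lower in this comparison (quasi-likelihood test of edgeR with Benjamini-Hochberg adjustment over 14610 genes, adjusted p under 0.05) and 8.79% were higher. Abundant genes pass more often, and among the 1112 genes with a mean of at least 200 CPM, a level that all 10 genes reach, 14.7% were lower. In 8 of the 10 genes every nuclear extract library lay below every control library, against 15.4% of tested genes. That share, like those without overlap given below, covers tested genes of every level and is not given for abundant genes alone. The median log2 fold change was -0.13 for the 10 genes and 0.02 for all genes tested. On library totals alone, without the trimmed mean scaling, 1 of the 10 genes passed as lower.

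**Figure D2:**
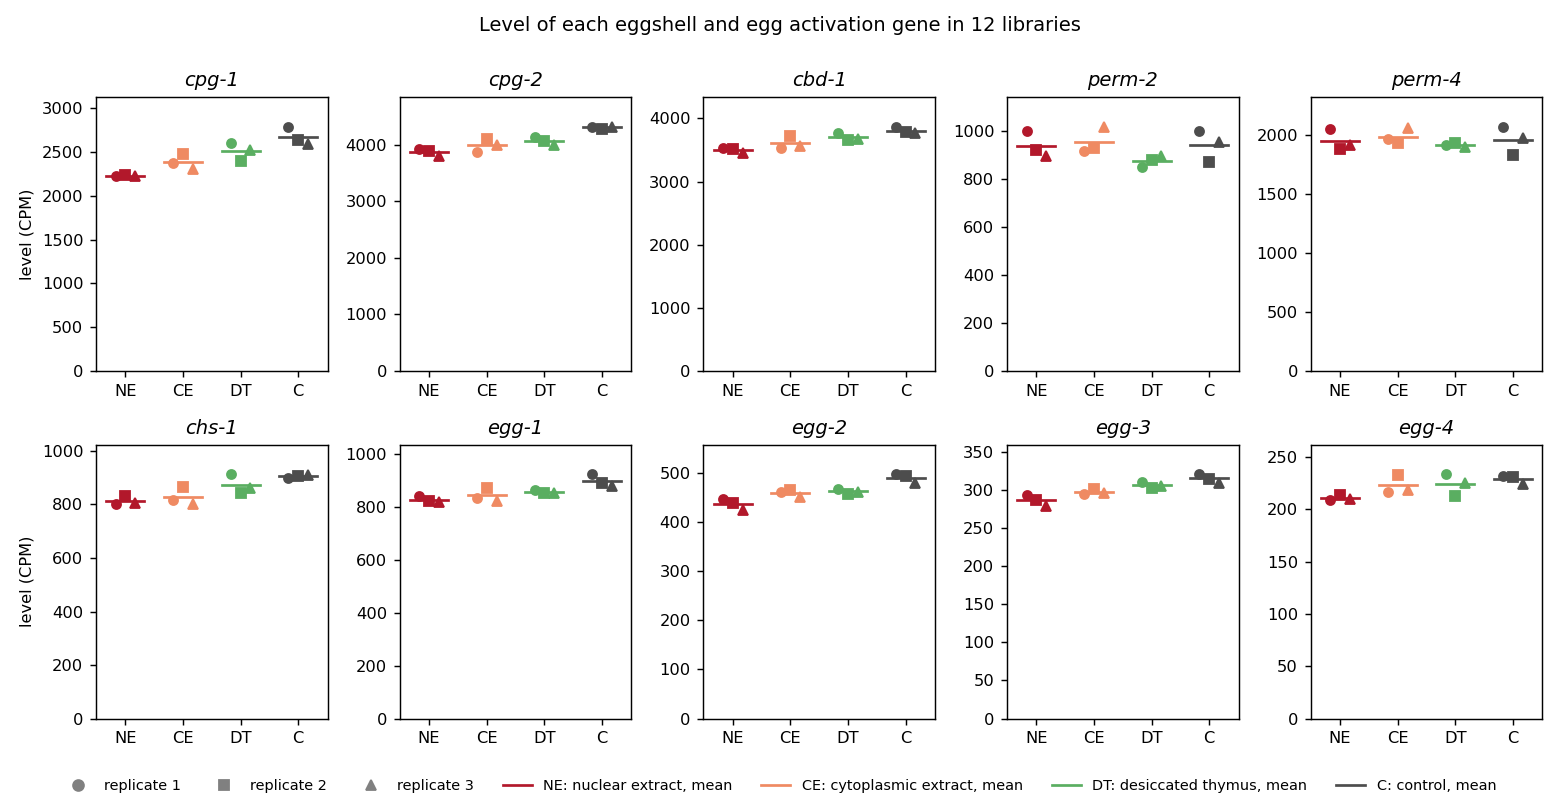
Level of each gene in CPM (vertical axis, from 0) in every library, by diet (NE nuclear extract, CE cytoplasmic extract, DT desiccated thymus, C control), with replicates as symbols and group means as lines. Nuclear extract libraries lie below all control libraries for 8 genes, while those of perm-2 and perm-4 overlap with the control.

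The proteoglycan genes come first by level. CPG-1 and CPG-2 are chondroitin proteoglycans with chitin-binding domains, are partly redundant, and form the inner proteoglycan layer. The gene cpg-1 (CELE_C07G2.1, chromosome III, 4489359 to 4491392, plus strand of WBcel235, 4 exons, a protein of 584 residues) had 2222, 2239 and 2224 CPM in the 3 nuclear extract libraries, 2380, 2479 and 2303 with the cytoplasmic extract, 2603, 2395 and 2525 with desiccated thymus, and 2791, 2639 and 2594 in the control. The nuclear extract libraries were the lowest of the 12 and differed from one another by less than those of any other diet. Their mean of 2228 ± 9.48 CPM, against 2675 ± 103 in the control (SD, n = 3 each), was a log2 fold change of -0.26 (SE 0.036, edgeR adjusted p = 0.000436). Of the 659 genes that fell in this comparison, 495 changed by less than cpg-1.

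The other proteoglycan gene, cpg-2 (CELE_B0280.5, chromosome III, 7102092 to 7103990, minus strand, 5 exons, 524 residues), had 3928, 3895 and 3798 CPM with the nuclear extract, 3868, 4104 and 3995 with the cytoplasmic extract, 4130, 4064 and 3986 with desiccated thymus, and 4316, 4278 and 4320 in the control. All 9 libraries of supplemented worms lay below the 3 control libraries. Its mean was 3874 ± 67.7 CPM with the nuclear extract and 4304 ± 23.1 in the control (SD, n = 3 each), a log2 fold change of -0.15 (SE 0.027, edgeR adjusted p = 0.00221). The fall of cpg-2 was smaller than that of cpg-1, and the ratio of their counts, given below, was lower in the nuclear extract libraries.

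In the vitelline layer, cbd-1 fell with the nuclear extract and the perm genes did not pass the test. CBD-1 is a protein with many chitin-binding domains that is needed for the vitelline layer and for holding the EGG proteins at the egg surface. The gene cbd-1 (CELE_H02I12.1, chromosome IV, 11372991 to 11377627, plus strand, 10 exons, 1319 residues) had 3525, 3515 and 3456 CPM with the nuclear extract, 3526, 3729 and 3566 with the cytoplasmic extract, 3769, 3662 and 3668 with desiccated thymus, and 3872, 3790 and 3764 in the control. Nuclear extract libraries were below those of every other diet, although the highest of them nearly met the lowest cytoplasmic extract library. The mean of 3499 ± 37.5 CPM, against 3809 ± 56.4 in the control (SD, n = 3 each), gave a log2 fold change of -0.12 (SE 0.027, edgeR adjusted p = 0.00842).

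PERM-2 and PERM-4 are secreted proteins of the vitelline layer that depend on one another and on CBD-1 for their place in it. Their genes are neighbours on chromosome IV, perm-4 (CELE_C44B12.5) at 1121494 to 1125107 on the minus strand (331 residues) and perm-2 (CELE_C44B12.1) at 1126790 to 1128865 on the plus strand (203 residues), with 1682 bases between them. In perm-2 the levels were 1002, 922 and 899 CPM with the nuclear extract, 920, 932 and 1020 with the cytoplasmic extract, 849, 879 and 898 with desiccated thymus, and 1002, 872 and 954 in the control. Replicate 1 was the highest library of both the nuclear extract and the control, and their ranges overlapped almost entirely. The log2 fold change of perm-2 with the nuclear extract was -0.0025 (edgeR adjusted p = 0.982), with a 95% interval from -8.13% to 8.48% of the control level. For perm-4 the levels were 2051, 1888 and 1919 CPM with the nuclear extract, 1965, 1933 and 2059 with the cytoplasmic extract, 1919, 1938 and 1905 with desiccated thymus, and 2074, 1835 and 1976 in the control. Its log2 fold change with the nuclear extract was -0.0067 (edgeR adjusted p = 0.934), with an interval from -6.46% to 5.92%. These intervals hold falls as large as that of egg-1 in perm-2 but not as large as that of cpg-1 in either gene, and the difference between the perm genes and the others was not itself tested. On library totals alone, or on totals without ribosomal RNA, both values were slightly above 0 (0.040 and 0.036 for perm-2, 0.036 and 0.032 for perm-4).

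The chitin synthase of the eggshell, CHS-1, makes the chitin polymer and is needed for the whole shell. Its gene chs-1 (CELE_T25G3.2, chromosome I, 7554855 to 7559629, plus strand, 10 exons, 1322 residues) had 800, 830 and 807 CPM with the nuclear extract, 818, 867 and 803 with the cytoplasmic extract, 914, 843 and 863 with desiccated thymus, and 900, 905 and 911 in the control. The control libraries were close together, and all nuclear and cytoplasmic extract libraries were below them. With 813 ± 15.8 CPM on the nuclear extract against 905 ± 5.38 in the control (SD, n = 3 each), chs-1 fell by 10.3% (log2 fold change -0.16, SE 0.036, edgeR adjusted p = 0.0116).

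EGG-1 and EGG-2 are paralogous transmembrane proteins with LDL-receptor repeats on the oocyte surface, needed for the sperm to enter and for the shell to form. Their genes are both on chromosome III, egg-1 (CELE_B0244.8) at 5728180 to 5730159 (plus strand, 551 residues) and egg-2 (CELE_R01H2.3) at 7058527 to 7060583 (minus strand, 548 residues). The levels of egg-1 were 839, 823 and 816 CPM with the nuclear extract, 833, 871 and 822 with the cytoplasmic extract, 864, 850 and 852 with desiccated thymus, and 923, 888 and 878 in the control. All 9 supplemented libraries were below the 3 control libraries, although the lowest control library was less than 1% above the highest of them. With the nuclear extract, egg-1 fell to 826 ± 11.96 CPM, against 896 ± 23.7 in the control (SD, n = 3 each), a log2 fold change of -0.12 (SE 0.031, edgeR adjusted p = 0.0222). That call was the weakest of the 7. It was lost without nuclear extract replicate 2, nuclear extract replicate 3 or control replicate 1 (edgeR adjusted p = 0.0764, 0.0846 and 0.0727).

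In egg-2 the levels were 448, 439 and 424 CPM with the nuclear extract, 460, 465 and 452 with the cytoplasmic extract, 468, 458 and 462 with desiccated thymus, and 498, 494 and 480 in the control. Nuclear extract libraries were below those of every other diet, and control libraries were above them. The mean was 437 ± 12.1 CPM with the nuclear extract and 491 ± 9.33 in the control (SD, n = 3 each), with a log2 fold change of -0.17 (SE 0.031, edgeR adjusted p = 0.00334). After cpg-1, egg-2 had the largest change of the 10 genes. No source used here says how reads that match both paralogs were counted, so the split between egg-1 and egg-2 carries that uncertainty.

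EGG-3 and EGG-4 are pseudophosphatases, proteins of the tyrosine phosphatase family without phosphatase activity, that lie under the egg membrane, regulate the kinase MBK-2 and help to place CHS-1. The gene egg-3 (CELE_F44F4.2, chromosome II, 10882408 to 10884441, minus strand, 555 residues) had 294, 287 and 279 CPM with the nuclear extract, 295, 301 and 296 with the cytoplasmic extract, 311, 303 and 305 with desiccated thymus, and 321, 315 and 309 in the control. All nuclear and cytoplasmic extract libraries were below all desiccated thymus and control libraries. The log2 fold change with the nuclear extract was -0.14 (SE 0.032, edgeR adjusted p = 0.0130), and the call was lost without nuclear extract replicate 3 (edgeR adjusted p = 0.0676).

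For egg-4 (CELE_T21E3.1, chromosome I, 3932210 to 3934813, plus strand, 753 residues) the levels were 209, 213 and 210 CPM with the nuclear extract, 217, 233 and 219 with the cytoplasmic extract, 234, 213 and 225 with desiccated thymus, and 232, 231 and 224 in the control. Nuclear extract libraries were all below the control libraries, but the log2 fold change of -0.12 (SE 0.041) did not pass (edgeR adjusted p = 0.0651). It passed with size factors of relative log expression (0.0407) and in DESeq2 (0.0237), and without cytoplasmic extract replicate 2 or desiccated thymus replicate 2 (edgeR adjusted p = 0.0441 and 0.0471). A near-identical copy, egg-5, had 5786 to 9206 counts per library, so how reads were divided between the copies may affect either. In egg-5 the mean was 247 ± 8.80 CPM with the nuclear extract and 258 ± 17.5 in the control (SD, n = 3 each), with an edgeR adjusted p of 0.434.

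**Figure D3:**
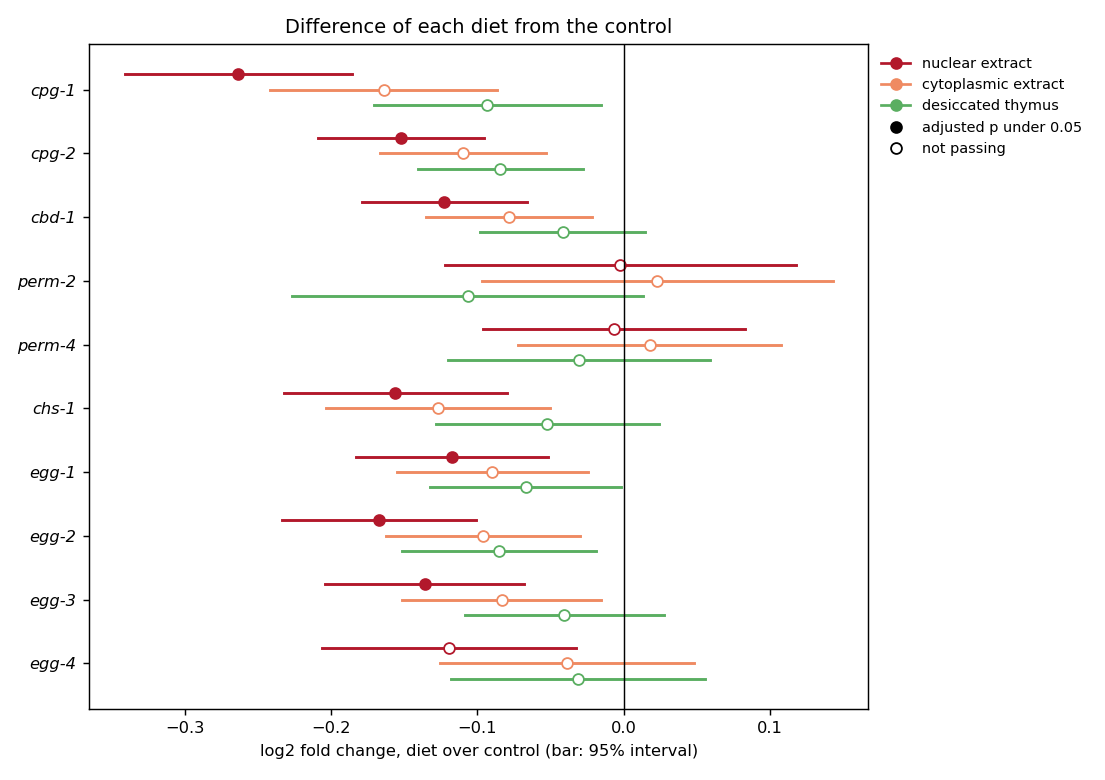
Log2 fold change of each gene (horizontal axis) with each supplement over the control, from the edgeR model, with 95% intervals; filled points have an adjusted p under 0.05. The filled points are the 7 nuclear extract values from -0.26 to -0.12, while the intervals of perm-2 and perm-4 span 0 on all 3 supplements.

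Exons of 3 of the genes share bases with a gene on the other strand in the deposited annotation, and no source used here says whether counting used the strand. These were egg-1 with B0244.9 over 42 bases, egg-3 with lurp-1 over 21 bases and perm-2 with C44B12.6 over 25 bases. The neighbours had mean counts of 3.92, 24.4 and 16.2 per library, against 6606 or more for the genes described, so they could hold little of the measured reads.

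With the cytoplasmic extract, none of the 10 genes passed the test against the control. At an edgeR adjusted p under 0.05, 0.212% of tested genes were lower and 0.5% higher. In edgeR 7 of the 10 had an unadjusted p under 0.05, and DESeq2 called 4 of them lower. The shares of all tested genes at an unadjusted p or in DESeq2 are not given here, so neither count can be set against a share. The values of the 7 were all below the control, between -0.16 and -0.08 on the log2 scale, and the same number of genes had all 3 cytoplasmic extract libraries below all 3 control libraries, against 7.78% of tested genes. The lowest adjusted p was that of cpg-1, which averaged 2387 ± 88.4 CPM with the cytoplasmic extract and 2675 ± 103 in the control (SD, n = 3 each; log2 fold change -0.16, edgeR adjusted p = 0.0554). Next was cpg-2, with 3989 ± 118 CPM with the cytoplasmic extract and 4304 ± 23.1 in the control (SD, n = 3 each; log2 fold change -0.11, edgeR adjusted p = 0.0794). The values of perm-2 and perm-4 were slightly positive at 0.02 each. The cytoplasmic extract counts were not stable: without cytoplasmic extract replicate 2, 2 genes passed, and without control replicate 3, desiccated thymus replicate 1 or desiccated thymus replicate 2, 1 gene passed.

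With desiccated thymus, none of the 10 genes passed against the control either. At an edgeR adjusted p under 0.05, 0.897% of tested genes were lower and 2.97% higher. In edgeR 4 of the 10, cpg-1, cpg-2, egg-1 and egg-2, had an unadjusted p under 0.05, all with lower values. DESeq2 called 1 lower. The shares of all tested genes at an unadjusted p or in DESeq2 are not given here. All 3 desiccated thymus libraries lay below all control libraries for cpg-2, egg-1 and egg-2, against 7.97% of tested genes. The lowest adjusted p belonged to cpg-2, with 4060 ± 72.1 CPM in desiccated thymus and 4304 ± 23.1 in the control (SD, n = 3 each; log2 fold change -0.08, edgeR adjusted p = 0.1001). The largest negative value was that of perm-2, at -0.11 (edgeR adjusted p = 0.367), whose desiccated thymus libraries, at 849 to 898 CPM, were its lowest as a group. The 3 comparisons share the same control libraries, so their values are not independent of one another.

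The direct comparisons between supplements called none of the 10 genes. For the nuclear over the cytoplasmic extract, 0.192% of tested genes passed as lower and 1.59% as higher. In 5 of the 10 genes there was no overlap, with the nuclear extract lower, against 10.7% of tested genes. An unadjusted p under 0.05 in edgeR was found for 2 genes, cpg-1 and egg-2, at -0.10 and -0.07 on the log2 scale. For the nuclear extract over desiccated thymus, 0.00684% of tested genes, a count of 1, passed as lower and 0.157% as higher. In 7 of the 10 genes there was no overlap, with the nuclear extract lower, against 9.56% of tested genes. An unadjusted p under 0.05 in edgeR was found for 7 genes. The share of all tested genes at an unadjusted p is not given here for either comparison. The gene nearest to passing was cpg-1, with 2228 ± 9.48 CPM with the nuclear extract and 2508 ± 105 with desiccated thymus (SD, n = 3 each; log2 fold change -0.17, edgeR adjusted p = 0.0694), and it passed without control replicate 1 (edgeR adjusted p = 0.0228). In perm-2 the nuclear extract libraries, at 899 to 1002 CPM, were above those of desiccated thymus, at 849 to 898, a direction without overlap in 11.5% of tested genes. For the cytoplasmic extract over desiccated thymus, the value with the lowest unadjusted p was a positive one, perm-2 at 0.13 (edgeR adjusted p = 0.446), in a comparison where 0.418% of tested genes were higher and 0.794% lower. The cytoplasmic extract libraries of perm-2 were all above those of desiccated thymus, as in 7.87% of tested genes, and those of egg-3 were all below, as in 9.07%. So the falls found against the control were not shown to differ between supplements.

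Tested for a difference among any of the 4 diets, 5 of the 10 genes changed, against 7.67% of tested genes. The share among abundant genes alone, which passed more often as lower with the nuclear extract, is not given for this test. The 5 genes were cpg-1 (edgeR adjusted p = 0.00205), cpg-2 (0.0112), egg-2 (0.0193), chs-1 (0.0352) and cbd-1 (0.0369). The count was 2 without nuclear extract replicate 2, nuclear extract replicate 3 or control replicate 2, and 3 without nuclear extract replicate 1, cytoplasmic extract replicate 3 or desiccated thymus replicate 3. It was 0 on library totals alone, and 2 on totals without ribosomal RNA or with edgeR's earlier quasi-likelihood method.

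Summed over the 10 genes, the level was 15067 ± 244 CPM with the nuclear extract, 15577 ± 317 with the cytoplasmic extract, 15785 ± 244 with desiccated thymus and 16529 ± 357 in the control (SD, n = 3 each). The 3 control libraries, at 16247 to 16930 CPM, were the highest of the 12, and 2 nuclear extract libraries were the lowest. Most of this sum comes from cpg-2, cbd-1, cpg-1 and perm-4. Variation within a diet was small next to the levels, with a coefficient of variation from 0.426% for cpg-1 with the nuclear extract to 6.98% for perm-2 in the control.

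The 10 genes did not vary as 1 block across the libraries. In log2 CPM over the 12 libraries, 8 of them followed one another, each having its closest partner among the other 7: egg-2 and egg-3 at a Pearson correlation of 0.96, cpg-1 and cbd-1 at 0.96, and egg-1 with cbd-1 at 0.95. The chitin synthase gene followed cbd-1 at 0.92 and egg-4 followed cpg-1 at 0.88. These values include the differences between diets. Once each diet's mean was removed, egg-2 and egg-3 stood at 0.92, cpg-1 and cbd-1 at 0.77, and chs-1 and cbd-1 at 0.72. Some other pairs of the 8 fell further, such as cpg-1 and cpg-2 (0.88 to 0.32) and egg-3 and chs-1 (0.84 to 0.34). By contrast egg-4 and chs-1 kept theirs (0.84 and 0.86). The neighbouring genes perm-2 and perm-4 followed each other at 0.87, and at 0.91 once each diet's mean was removed. In all 8 other genes perm-2 was the least alike member, with correlations from -0.36 for chs-1 to 0.03 for cpg-2. These correlations describe 12 libraries that share diets and scaling factors.

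Ratios of counts between genes within a library do not depend on how libraries are scaled. The ratio of cpg-1 to cpg-2 was 0.575 ± 0.0100 with the nuclear extract, 0.599 ± 0.0201 with the cytoplasmic extract, 0.618 ± 0.0246 with desiccated thymus and 0.621 ± 0.0234 in the control (SD, n = 3 each). All nuclear extract libraries, at 0.566 to 0.586, were below all control libraries, at 0.601 to 0.647, but overlapped with the cytoplasmic extract, at 0.576 to 0.615. Within the vitelline layer the ratio of perm-4 to cbd-1 was 0.537 to 0.582 with the nuclear extract and 0.484 to 0.536 in the control, and that of perm-2 to cbd-1 was 0.260 to 0.284 with the nuclear extract and 0.230 to 0.259 in the control. Neither overlapped, but the highest control library and the lowest nuclear extract library were less than 1% apart in both. Means with the cytoplasmic extract were close to those with the nuclear extract, at 0.551 against 0.558 for perm-4 and 0.266 against 0.269 for perm-2. The cytoplasmic extract ranges, 0.518 to 0.577 for perm-4 and 0.250 to 0.286 for perm-2, did overlap with the control. The ratio of egg-2 to egg-1 was also without overlap, at 0.519 to 0.534 with the nuclear extract and 0.539 to 0.556 in the control. By contrast the ratio of chs-1 to egg-3 overlapped, with 2.84 ± 0.0964 with the nuclear extract and 2.88 ± 0.0697 in the control. These ratios were chosen after the values of the genes had been seen and are given without a test.

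**Figure D4:**
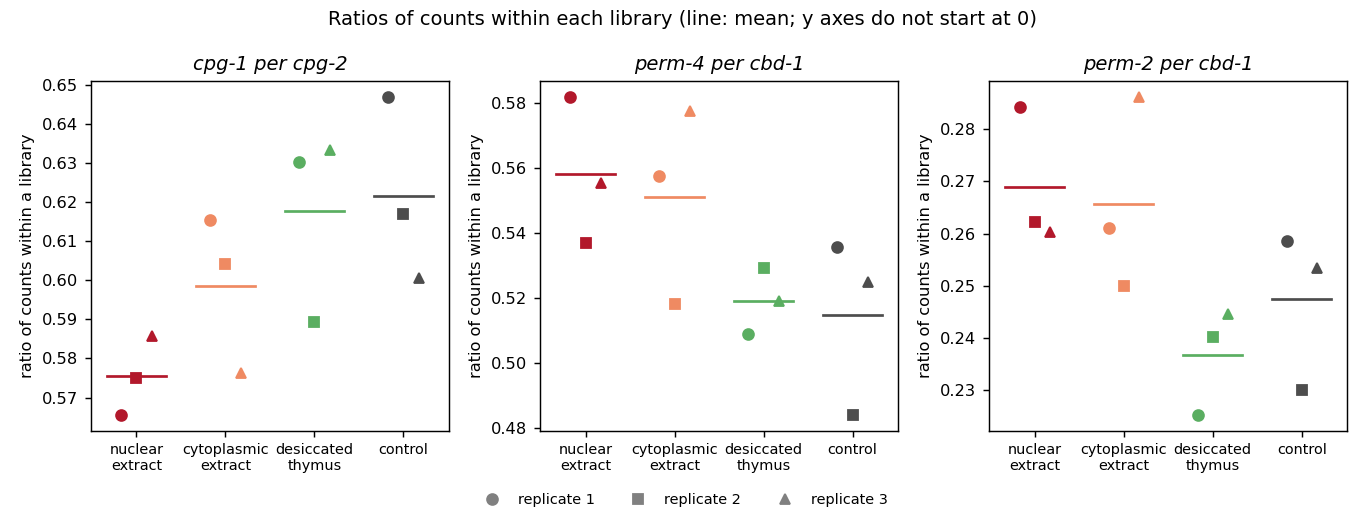
Ratio of counts within each library (vertical axes, which do not start at 0) for cpg-1 to cpg-2, perm-4 to cbd-1 and perm-2 to cbd-1, by diet, with replicates as symbols and means as lines. The mean cpg-1 to cpg-2 ratio is lowest with the nuclear extract (0.566 to 0.586, against 0.601 to 0.647 in the control), whose range overlaps that of the cytoplasmic extract (0.576 to 0.615). Both perm ratios are higher with the nuclear extract than in the control. Their cytoplasmic extract means lie close to those of the nuclear extract, but their cytoplasmic extract ranges overlap with the control.

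Most genes in other lists related to the eggshell had small negative values with the nuclear extract that did not pass. Of 10 genes listed as other eggshell structure genes, 8 were matched and tested. None passed in either direction, and 6 had negative values, with a median log2 fold change of -0.07 over the 8. These are further cpg and perm genes taken by name, and the part of each in the shell was not checked. At an unadjusted p under 0.05, perm-3 (-0.15) and perm-5 (-0.11) were lower and cpg-9 was higher. The level of cpg-9 was low, with 2.92 CPM on the nuclear extract and 1.27 in the control (log2 fold change 1.21, edgeR adjusted p = 0.0752). The only other positive value was that of cpg-7 (0.41, edgeR adjusted p = 0.178). These 4 genes were named after their values were seen. In the synthesis of chitin precursors, 2 of 6 tested genes fell and none rose, with a median of -0.13. These were gfat-1, for glutamine-fructose-6-phosphate aminotransferase, with 508 CPM on the nuclear extract and 569 in the control (log2 fold change -0.16, edgeR adjusted p = 0.0287), and gna-2, for glucosamine-6-phosphate N-acetyltransferase, with 201 CPM on the nuclear extract and 225 in the control (-0.16, 0.0320). Both calls were lost without nuclear extract replicate 3, control replicate 1 or control replicate 2, and 1 of them without nuclear extract replicate 2. All 9 genes of chondroitin synthesis had negative values with a median of -0.08, and none passed, 4 having an unadjusted p under 0.05. Among all tested genes, 47.8% had negative values in this comparison. The share of all tested genes at an unadjusted p is not given for it, here or for the lists below.

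The permeability barrier is laid down by lipid enzymes, and among 6 of their genes 1 rose and 1 fell, with a median near 0. The fatty acid synthase gene fasn-1 rose, with 125 CPM on the nuclear extract and 91.0 in the control (log2 fold change 0.46, edgeR adjusted p = 0.00534). The NADPH-cytochrome P450 reductase gene emb-8 fell, with 224 CPM on the nuclear extract and 273 in the control (-0.29, edgeR adjusted p = 0.0381). It did not pass with the replicate number as a block (edgeR adjusted p = 0.0657). The emb-8 call was also lost in 7 of the 12 fits that leave out 1 library. Of 11 regulators of egg activation and cortical granules, none passed, 3 had an unadjusted p under 0.05, and the median was -0.07.

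Some other messages of the oocyte fell as well. Of 17 oocyte and maternal regulator genes, 6 fell with the nuclear extract and none rose, with a median of -0.12 and summed levels of 13681 to 14261 CPM, against 14468 to 15685 CPM in the control. The RNA-binding protein genes spn-4 (-0.19, edgeR adjusted p = 0.0154), oma-1 (-0.16, 0.00571), puf-3 (-0.16, 0.0396) and oma-2 (-0.15, 0.0302) had the largest changes among them. The count of 6 was 1 without nuclear extract replicate 2 or nuclear extract replicate 3, and 2 without control replicate 1; it was 0 on library totals alone and 11 in DESeq2. Of 18 genes of the mitotic and meiotic germline, the helicase gene cgh-1 fell (-0.10, edgeR adjusted p = 0.0363) and the helicase gene glh-1 rose (0.18, 0.0290), with a median of -0.09, and each call was lost in 5 of the 12 fits that leave out 1 library. No test compared the 10 genes with these lists.

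**Figure D5:**
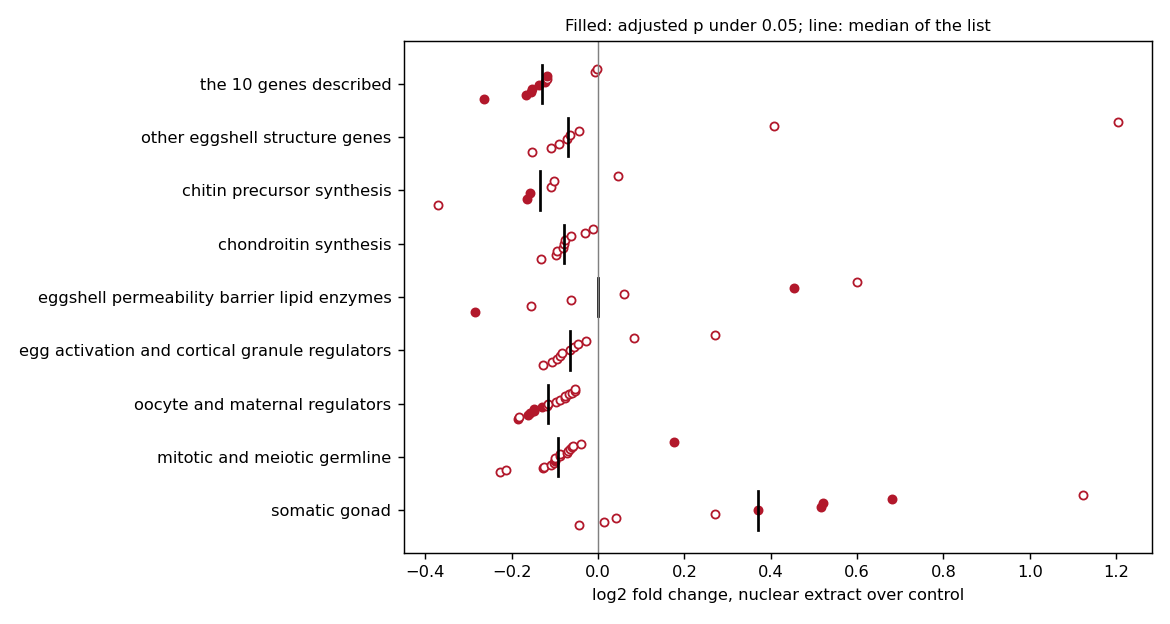
Log2 fold change with the nuclear extract over the control (horizontal axis) of every tested gene in the set described and in 8 related lists, with filled points for an adjusted p under 0.05 and a line at each median. The medians are -0.13 for the 10 genes, -0.12 for oocyte and maternal regulators and 0.37 for the somatic gonad. The 4 somatic gonad genes with filled points had 4.92 to 9.11 CPM in the control.

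Some markers of other tissues rose with the nuclear extract. Of 10 intestine markers, 6 rose and none fell, among them the ABC transporter gene pgp-1 (2.08) and the peptide transporter gene pept-1 (1.86), and the list summed to 1816 to 1987 CPM with the nuclear extract and 1572 to 1677 CPM in the control. Of 9 somatic gonad markers, 4 rose and none fell, led by ceh-18 (0.68), with summed levels of 875 to 898 CPM with the nuclear extract and 826 to 908 CPM in the control. The 4 that rose had low levels, at 4.92 to 9.11 CPM in the control. The more abundant markers fln-1 and inx-8, at 656 and 150 CPM in the control, did not pass (0.01 and -0.04). Of 8 hypodermis and cuticle genes 4 rose, and the list summed to 81.4 to 129 CPM with the nuclear extract and 48.3 to 89.9 CPM in the control. Among those that rose, rol-6, grd-10 and dpy-7 had low levels, at 0.362, 0.319 and 0.884 CPM in the control. At most 3 hypodermis and cuticle genes rose in any fit that left out 1 library. Of 8 neuron genes 2 rose and snb-1 fell (-0.16). Without nuclear extract replicate 2, nuclear extract replicate 3, control replicate 1 or control replicate 2, 2 somatic gonad and 2 hypodermis genes rose. The hypodermis count was also 2 without control replicate 3, cytoplasmic extract replicate 1 or desiccated thymus replicate 1. The neuron count of 2 was 0 or 1 without any of the first 4 of these libraries, 4 without nuclear extract replicate 1 and 5 without control replicate 3. None of 7 body wall muscle genes, 9 sperm genes or 6 genes of the zygotic embryo passed, with 1, 0 and 1 at an unadjusted p under 0.05. Of 6 vitellogenin genes, which encode the yolk made in the intestine, vit-1 rose (1.25) and the other 5 had negative values that did not pass. No listed marker was at 0 in all nuclear extract libraries. The part of these tissue differences in the falls of the 10 genes was not tested.

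With desiccated thymus, 4 intestine markers rose as well (elt-2, pept-1, pgp-1 and pho-1), and 2 somatic gonad markers, while no eggshell gene passed. Of the oocyte list 1 gene, pie-1, fell there (-0.15, edgeR adjusted p = 0.0480). The cytoplasmic extract called no gene of these lists in either direction.

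Among 5821 other named genes with a mean of at least 5 CPM, 8 were taken as having the pattern most like the mean of the 10 standardised genes over the 12 libraries. The closest was gyg-2, a glycogenin gene, at a Pearson correlation of 0.97 and a mean of 503 CPM, followed by oma-1 and chaf-2, a chromatin assembly factor gene, at 0.96 each. The other 5 were aptf-3 (0.95), egl-27 (0.94), rpb-3 (0.94), slx-1 (0.94) and vps-39 (0.94). All 8 fell with the nuclear extract against the control, gyg-2 by 0.21 and chaf-2 by 0.22 on the log2 scale, which follows from how they were chosen. Among the 10 genes themselves the same correlation ran from 0.14 for perm-2 and 0.21 for perm-4 to 0.96 for cbd-1.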

How the data were processed

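Per the labels' protocols, RNA of whole worms was enriched with oligo(dT) beads and sequenced in pairs of 150 bases, although the molecule field says nuclear RNA. The authors deposited a table of read counts per gene in whole numbers, which the submitters' processing notes associate with the tools Trimmomatic, STAR, featureCounts and DESeq2 and give no versions. The chromosome accessions of the table are those of WBcel235. Groups and replicate numbers came from the titles, and count columns were assigned by the initials of the diets and the replicate number, which is an inference from names. Libraries of 1 diet differed by more than sampling noise. The chi-square per degree of freedom was 306 and 192 for desiccated thymus replicate 3 against its partners, and 5.68 to 29.2 for the other pairs. All 12 libraries were kept, and results without each library are given. Since nothing says that replicates were separate cultures, each p measures a spread between libraries that can be technical only.

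From the counts, genes were kept by filterByExpr (minimum count 10), scaled by TMM factors and fitted as 4 group means in 1 model of the 12 libraries (edgeR 4.0.16, R 4.3.3, glmQLFit with robust estimation; the biological coefficient of variation was 12.7%). Tests were two-sided quasi-likelihood tests, with Benjamini-Hochberg adjustment over 14610 genes and a threshold of 0.05, and every adjusted p comes from it unless another tool is named. For 3 libraries against 3, the smallest two-sided p of an exact permutation test is 0.1. The script was tested on simulated data. Its pass mark was set on changes far larger than those reported here, and its recovery of changes this small is not given.

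The 10 genes and the gene lists were chosen with earlier results of these data known. All 10 genes are named, up to 4 passing genes of each list with the largest change with the nuclear extract, and the 8 other named genes of closest pattern. Named as single cases are B0244.9, lurp-1, C44B12.6, vit-1, snb-1, cgh-1, glh-1, pie-1, elt-2, pho-1, fln-1 and inx-8. No list was tested as a set. Of the listed genes, cpg-5, cpg-6 and uap-1 were not matched by name and were not analysed here.

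Equal replicate numbers in the titles were checked for pairing by correlating, across genes, how libraries deviate from their group means. Those of equal number deviated together for the nuclear extract and the control (0.383, 0.669 and 0.330), desiccated thymus and the control (0.149, 0.471 and 0.199), and the nuclear extract and desiccated thymus (0.254, 0.473 and 0.197), but not for replicate 1 of the cytoplasmic extract (-0.358 with the control). The pairing comes from these values alone. The alternatives were size factors of relative log expression, library totals, no filter, DESeq2 1.42.0, a fit of only the groups compared, the replicate number as a block, and leaving out each library.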

Additional observations from a re-analysis of the deposited data

How the results depend on the processing

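The nuclear extract count of 7 lower genes was 8 with size factors of relative log expression and in DESeq2, 7 without a filter, 6 with only the 2 groups compared, 6 with totals without ribosomal RNA and 5 to 8 when 1 library was left out, with 5 without nuclear extract replicate 3. On library totals alone it was 1, and the median of all genes then moved to 0.06 on the log2 scale and that of the 10 genes to -0.09. Totals alone carry the 14.0% of ribosomal RNA in desiccated thymus replicate 3. With the replicate number as a block, the count stayed 7 and all 60 values of the 10 genes kept their direction and call.

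For the cytoplasmic extract over the control, where none passed, 1 gene passed with size factors of relative log expression, 2 without a filter, 4 in DESeq2 and 0 to 2 with 1 library left out. For desiccated thymus over the control 1 passed in DESeq2. For the nuclear extract over desiccated thymus 1 passed without a filter, in DESeq2 and with only the 2 groups compared, and 0 to 1 with 1 library left out. The count of 5 genes that differed among any of the diets was 0 on library totals, 2 on totals without ribosomal RNA, 2 with the earlier quasi-likelihood method and 2 to 6 with 1 library left out. The totals without ribosomal RNA and the earlier quasi-likelihood method were chosen after seeing the data. The cause of these shifts was not tested.

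Signs turned only in values that had not passed. On library totals they turned, for the cytoplasmic extract over desiccated thymus, to 0.00084 in cpg-1, 0.045 in cpg-2, 0.034 in cbd-1, 0.048 in egg-1, 0.060 in egg-2, 0.028 in egg-3 and 0.064 in egg-4, for the nuclear extract over desiccated thymus to 0.015 in cpg-2, 0.0026 in cbd-1, 0.033 in egg-1 and 0.0012 in egg-2, and for the nuclear extract over the control to 0.040 in perm-2 and 0.036 in perm-4. On totals without ribosomal RNA they turned to 0.0015 in egg-4 for the cytoplasmic extract over desiccated thymus and, for the nuclear extract over the control, to 0.036 in perm-2 and 0.032 in perm-4.

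With 1 library left out, egg-4 ran from -0.064 to 0.0043 for desiccated thymus over the control and from -0.044 to 0.025 for the cytoplasmic extract over desiccated thymus. In perm-2 the range was -0.056 to 0.043 for the nuclear extract over the control, -0.031 to 0.068 for the cytoplasmic extract over the control and -0.073 to 0.023 for the nuclear over the cytoplasmic extract. In perm-4 it was -0.053 to 0.035 for the nuclear extract over the control, -0.029 to 0.059 for the cytoplasmic extract over the control, -0.077 to 0.011 for desiccated thymus over the control, -0.061 to 0.0026 for the nuclear over the cytoplasmic extract and -0.014 to 0.048 for the nuclear extract over desiccated thymus.

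The limits are the 3 libraries per diet, the unknown origin of replicates, and the small size of the changes. Counting error, at most 1.43%, was smaller than each change that passed. It is only part of the spread, since libraries of 1 diet differed by more than sampling noise.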
